A study of Rattus norvegicus with 9 samples.

Results

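The CCN matricellular family was examined in prostates of rats with androgen-induced BPH, with or without oral ghrelin. Its 6 genes were taken with every probe whose RefSeq accession mapped to them, older symbols included: Ccn1 (Cyr61), Ccn2 (Ctgf), Ccn3 (Nov), Ccn4 (Wisp1), Ccn5 (Wisp2) and Ccn6 (Wisp3). These were 6 of 15163 named genes and 7 of 30356 probes. The family was chosen with its values on these arrays known, so its differences are given as a description without a test, although the count of called members and the arrays without which a call was lost are stated.

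Expression had been measured in prostates of male Sprague Dawley rats with 9 Agilent one-colour arrays, 3 in each of 3 groups. The rats were 6 weeks old at purchase. Sham rats had a sham operation, corn oil under the skin and oral vehicle, BPH rats were castrated and received dihydrotestosterone (3 mg/kg daily for 4 weeks, subcutaneously) and oral vehicle, and BPH+ghrelin rats were treated like BPH rats and received oral rat ghrelin (20 nmol/kg daily for 2 weeks, the last part of the androgen treatment). BPH and BPH+ghrelin thus share castration and the androgen, so that effects of castration and of the androgen cannot be told apart in a comparison with sham. The study had kept 8 rats per group, it is not stated which 3 were put on arrays, and whole prostates were used, so that fewer cells of a type and less RNA per cell cannot be told apart.

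CCN proteins are secreted, cysteine-rich proteins of the extracellular matrix that bind integrins, heparan sulfate proteoglycans and growth factors. Ccn1 and Ccn2 are known as early targets of YAP and TAZ, the coactivators at the end of the Hippo pathway that act through TEAD factors, and of TGF-β and SRF, and in the prostate Ccn2 is known from fibroblasts and smooth muscle cells of the stroma. Ccn5 lacks the cystine knot domain at the C-terminus of the other members and is known to slow the growth of smooth muscle cells, whereas Ccn4 and Ccn5 were found as genes induced by Wnt signaling.

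The promoters of Ccn1 and Ccn2 are shown because both genes carried the clearest differences among members with a RefSeq promoter at hand. The stretches are the 250 bases before the annotated start in RefSeq, assembly GRCr8, at chr2:237225690-237225939 for Ccn1 and chr1:22624615-22624864 for Ccn2, both on the minus strand and written 5′ to 3′ along the gene. Capitals mark the core of the TEAD motif, GGAATG, or CATTCC where it lies on the other strand.
Ccn1: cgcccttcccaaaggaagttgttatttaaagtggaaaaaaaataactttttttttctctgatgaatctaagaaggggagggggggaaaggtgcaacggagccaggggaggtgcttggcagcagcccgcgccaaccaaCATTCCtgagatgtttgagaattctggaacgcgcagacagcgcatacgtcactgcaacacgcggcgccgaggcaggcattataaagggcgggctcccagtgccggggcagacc
Ccn2: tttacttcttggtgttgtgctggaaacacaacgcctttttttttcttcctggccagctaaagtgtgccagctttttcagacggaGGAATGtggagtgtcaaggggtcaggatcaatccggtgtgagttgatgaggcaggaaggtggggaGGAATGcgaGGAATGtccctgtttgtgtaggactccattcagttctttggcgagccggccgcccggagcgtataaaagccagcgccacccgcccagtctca

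The TEAD core occurred 3 times before Ccn2, ending 161, 96 and 87 bases before the start, and 1 time before Ccn1, ending 108 bases before it. It occurred 0 times in the same stretch of Ccn6 at chr20:44139746-44139995. Of 33469 promoters of the same length, 12.1% held the core at least 1 time, 0.902% at least 2 times, and 0.0807% (27 promoters) at least 3 times, searched on both strands. CAGAC, the longer form of the SMAD element, was found 2 times before Ccn1, 1 time before Ccn2 and 2 times before Ccn6, with 42.9% of all promoters holding it. TATAAA lay 29 bases before the start of Ccn1 and 26 bases before that of Ccn2, and it was found in 12.9% of promoters. The core of the cAMP response element, TGACG, was found 1 time before Ccn1 and 1 time before Ccn6, and in 18.2% of promoters. The AP-1 motif TGANTCA, found in 6.34% of promoters, and the CArG box of SRF, found in 1.5%, had 0 matches before these 3 genes. Matching letters are a description, and binding was not measured.

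The arrays differed in brightness. The median raw signal of a probe was 19.0 on sham replicate 2 and 33.8 to 58.2 on the other arrays, and 61.4% of probes were well above background there against 69.5% to 75.05% elsewhere. For most of 21477 probes, the signal of 1 array per group was in between those of its group: sham replicate 3 (73.9%), BPH replicate 2 (71.6%) and BPH+ghrelin replicate 2 (69.3%), whereas the other arrays did so for 9.58% to 17.0%. Of the 5 members with signal, BPH replicate 2 was in between for 5, BPH+ghrelin replicate 2 for 5 and sham replicate 3 for 3. How these 3 arrays were prepared is not given in the sources used here. Each SE, interval and p-value takes the 3 arrays of a group as independent rats, which was not tested, and differences without the in-between arrays are given as well. The 9 arrays carried 3 scan numbers, and BPH and sham shared no scan. They were linked through BPH+ghrelin, which had 1 array in the scan of the BPH arrays and 2 in that of sham replicates 1 and 2, so that a fit with scan as a block separates scan and group poorly.

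**Figure D1:**
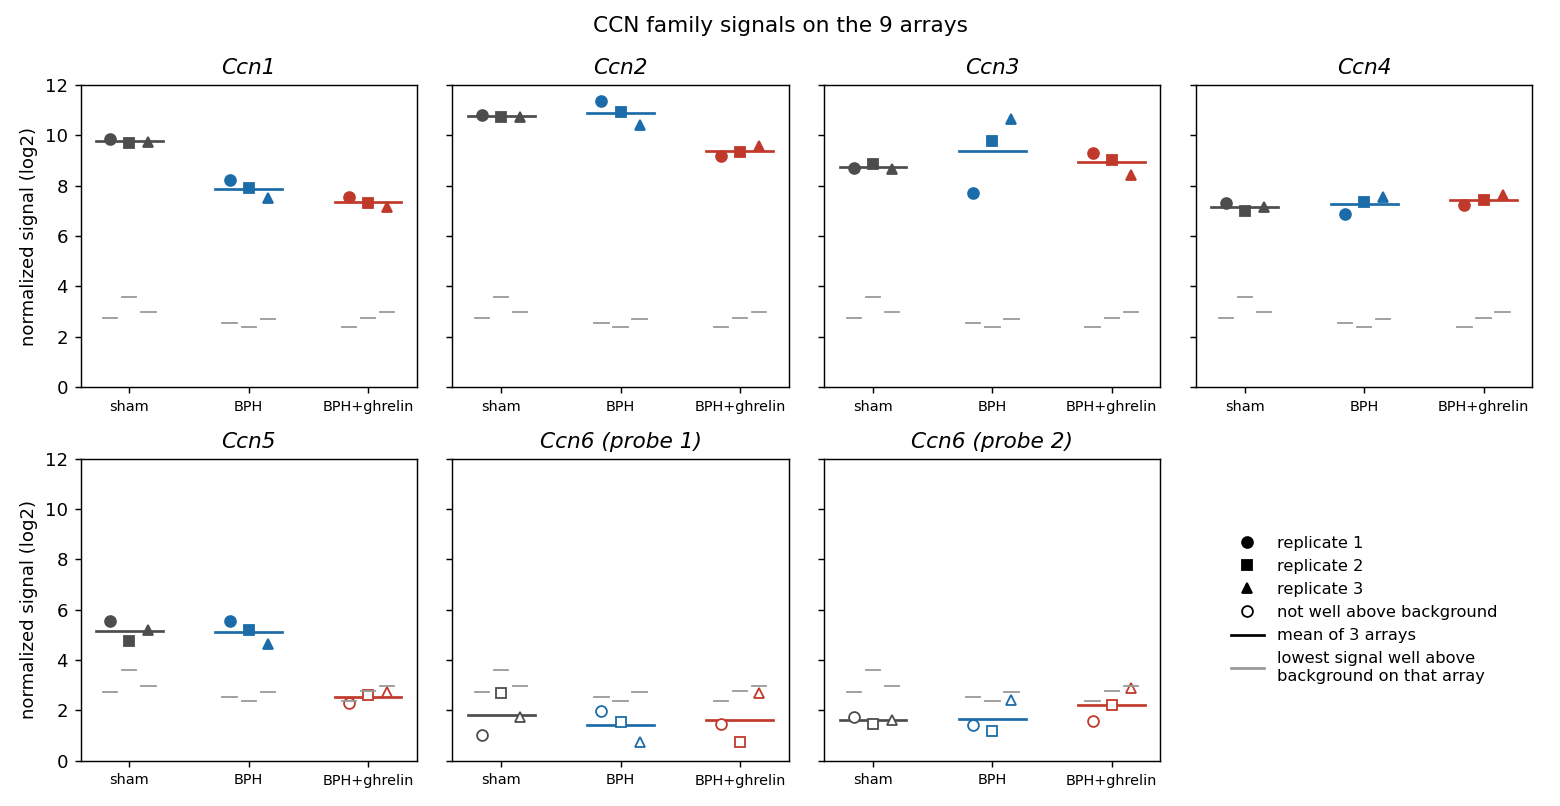
Normalized log2 signal (vertical axis) of the 7 CCN probes on each of the 9 arrays, by group; shapes give the replicate, open symbols are not well above background, bars are means of 3 arrays, and grey ticks mark the lowest signal well above background on that array. Ccn1 lies at 9.70 to 9.87 in sham and at 7.16 to 8.24 on the other 6 arrays, and Ccn5 at 2.29 to 2.74 in BPH+ghrelin.

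Ccn1, an angiogenic ligand of integrins, was lower in both androgen-treated groups than in sham. Its normalized log2 signal was 9.87, 9.70 and 9.75 in sham, 8.24, 7.89 and 7.50 in BPH, and 7.56, 7.33 and 7.16 in BPH+ghrelin (replicates 1, 2 and 3). All sham arrays lay above all others, and 1 array of BPH+ghrelin (7.56) lay above the lowest BPH array. The means were 9.77 ± 0.09, 7.87 ± 0.37 and 7.35 ± 0.20 (SD, n = 3 each). The log2 difference of BPH from sham was -1.90 ± 0.20 (SE), a signal 3.73-fold lower, and that of BPH+ghrelin from sham was -2.42 ± 0.20, a signal 5.37-fold lower. BPH+ghrelin and BPH differed by -0.52 ± 0.20 (95% interval -0.98 to -0.07), with overlapping arrays.

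Ccn1 was below sham in every fit in which 1 array was left out, with log2 differences of -2.08 to -1.71 for BPH and -2.53 to -2.33 for BPH+ghrelin. Without sham replicate 2, the dimmest array, the difference of BPH from sham was -1.94. Without the in-between array of each group, the differences were -1.92 and -2.42, and both calls were lost with 2 arrays per group. On the 2 sham and 2 BPH+ghrelin arrays of scan 2 alone, the difference was -2.54. With scan as a block, that of BPH from sham was -2.23 and the call was lost.

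Ccn2, connective tissue growth factor, which promotes matrix production by fibroblasts, had overlapping levels in sham and BPH and lower levels in BPH+ghrelin. Its log2 signal was 10.81, 10.74 and 10.73 in sham, 11.38, 10.93 and 10.39 in BPH, and 9.18, 9.35 and 9.59 in BPH+ghrelin. The BPH arrays spanned a 1.98-fold range around the tightly grouped sham arrays, and all 3 BPH+ghrelin arrays lay below all 6 others. The means were 10.76 ± 0.04, 10.90 ± 0.49 and 9.37 ± 0.20 (SD, n = 3). BPH+ghrelin differed from BPH by -1.53 ± 0.24 (SE), a signal 2.88-fold lower, and from sham by -1.39 ± 0.24, a signal 2.61-fold lower. BPH and sham differed by 0.14 ± 0.24, with a 95% interval of -0.40 to 0.68, and the sign turned to -0.10 without BPH replicate 1.

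The Ccn2 probe is printed 10 times on each array, and its spots repeated closely, with coefficients of variation of 2.20% to 7.72% within an array. Repeated spots cover neither labelling nor hybridization, so they leave the error of an array unmeasured. The lower Ccn2 signal in BPH+ghrelin kept its direction in all 6 fits with 1 array left out (-1.78 to -1.29 against BPH). The call against BPH was lost without BPH replicate 1 (-1.29) or 2 (-1.51), or without BPH+ghrelin replicate 1 (-1.43), 2 (-1.52) or 3 (-1.63). The call against sham was lost without sham replicate 3 (-1.40), BPH+ghrelin replicate 1 (-1.29) or 2 (-1.38). Without the in-between arrays, the differences were -1.50 against BPH and -1.39 against sham, and both calls were lost, as they were with scan or the replicate number as a block. Within scan 1, the difference of the single BPH+ghrelin array from the 3 BPH arrays was -1.72, and within scan 2, the difference from sham was -1.30.

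Ccn5, the member without the C-terminal domain, had a low signal in sham and BPH and was not well above background on any of the 3 BPH+ghrelin arrays. Its log2 signal was 5.55, 4.76 and 5.18 in sham, 5.56, 5.20 and 4.66 in BPH, and 2.29, 2.61 and 2.74 in BPH+ghrelin. Sham and BPH arrays were interleaved, and all BPH+ghrelin arrays lay below them. Set to the lowest signal of any probe well above background on each BPH+ghrelin array, Ccn5 would be 5.39-fold below BPH and 5.49-fold below sham. These folds are not strict bounds, since a probe can exceed that lowest signal without being well above background. Tgfb1, for example, had 2.78 on BPH+ghrelin replicate 1, where the lowest such signal was 2.39, and was not well above background. The measured means were 5.16 ± 0.39, 5.14 ± 0.45 and 2.55 ± 0.23 (SD, n = 3), and the fitted differences were -2.59 ± 0.28 and -2.61 ± 0.28 (SE). The probe entered these comparisons through its BPH and sham arrays alone, so a difference was built into passing the filter. BPH and sham differed by -0.03 ± 0.28 (95% interval -0.66 to 0.61).

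Ccn5 is also printed 10 times. The median raw signal of its spots was 14.0 to 49.9 on the sham arrays, 28.2 to 71.8 on the BPH arrays and 5.74 to 6.44 on the BPH+ghrelin arrays. In BPH+ghrelin, 2, 2 and 3 of the 10 spots were well above background, and in sham and BPH all kept spots were, of which sham replicate 2 had 6. The coefficient of variation within an array ran from 6.53% to 40.4%, the highest values being those of BPH+ghrelin. The call against BPH was lost without BPH replicate 1 or 2 or BPH+ghrelin replicate 2, and with the replicate number as a block. Without the in-between arrays, the measured differences were -2.59 and -2.63, and both calls were lost, as they were with scan as a block. Within scan 1 and scan 2, the differences were -2.84 against BPH and -2.47 against sham. With normexp background correction, which adds an offset of 50 to every signal, they shrank to -0.47 and -0.46.

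**Figure D2:**
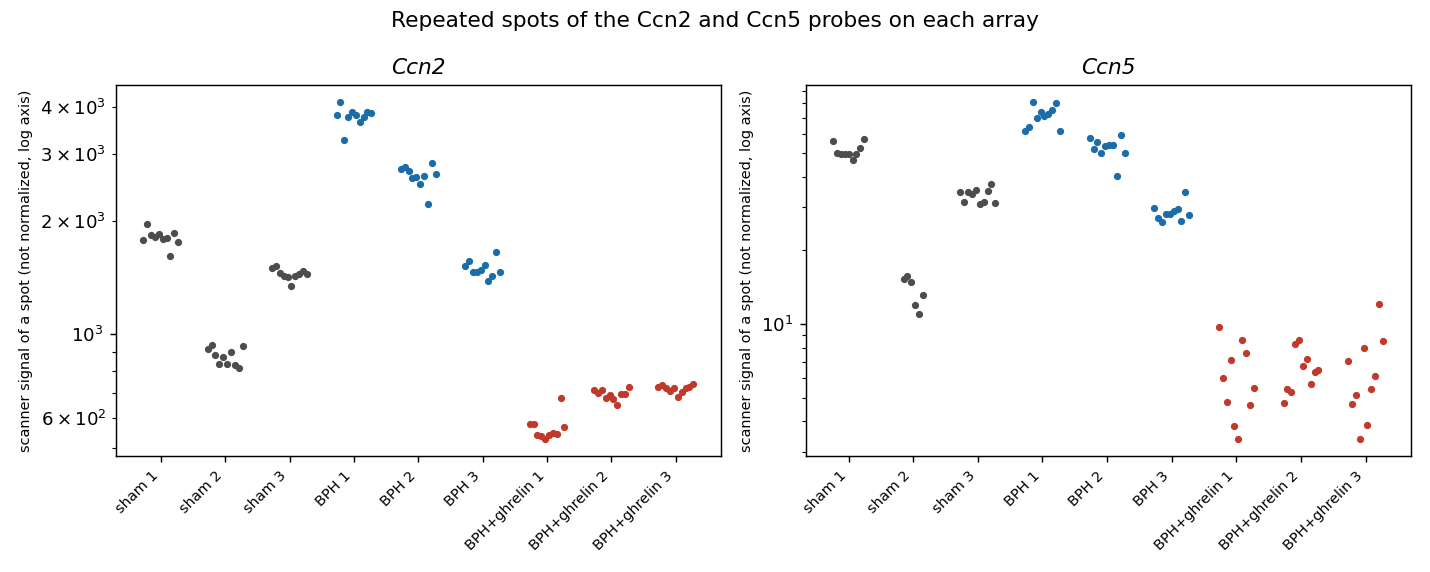
Scanner signal, not normalized, of every kept spot of the Ccn2 (left) and Ccn5 (right) probes on each array; vertical axes are logarithmic, and each point is 1 of up to 10 spots. The median Ccn5 spot lies at 5.74 to 6.44 on the BPH+ghrelin arrays and at 14.0 to 71.8 on the other arrays.

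Ccn3, which is known to restrain proliferation and to oppose Ccn2, varied most between arrays of 1 group. Its log2 signal was 8.69, 8.85 and 8.66 in sham, 7.72, 9.78 and 10.65 in BPH, and 9.31, 9.03 and 8.42 in BPH+ghrelin. Both the lowest and the highest of the 9 arrays were BPH arrays, a 7.60-fold range, while sham spanned 1.14-fold and BPH+ghrelin 1.84-fold. The means were 8.73 ± 0.10, 9.38 ± 1.502 and 8.92 ± 0.45 (SD, n = 3). The differences were 0.65 ± 0.64 (SE; 95% interval -0.82 to 2.12) for BPH from sham and -0.46 ± 0.64 (-1.93 to 1.01) for BPH+ghrelin from BPH. Both values depended on single arrays. BPH was 1.48 above sham without BPH replicate 1 and 0.02 above it without BPH replicate 3, and BPH+ghrelin against BPH was -1.29 and 0.17 in the same fits.

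Ccn4, which was found as a target of Wnt signaling and is known from matrix-producing mesenchymal cells, had overlapping levels in the 3 groups. Its log2 signal was 7.30, 7.00 and 7.16 in sham, 6.89, 7.34 and 7.56 in BPH, and 7.22, 7.42 and 7.61 in BPH+ghrelin. No group stood apart from another. The differences were 0.11 ± 0.19 (SE; 95% interval -0.33 to 0.56) for BPH from sham, 0.15 ± 0.19 (-0.30 to 0.60) for BPH+ghrelin from BPH and 0.26 ± 0.19 (-0.18 to 0.71) for BPH+ghrelin from sham. Ccn6, of whose functions the one in cartilage is best known, was not well above background with either of its 2 probes on any of the 9 arrays, so that it has no order between groups and was not tested.

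**Figure D3:**
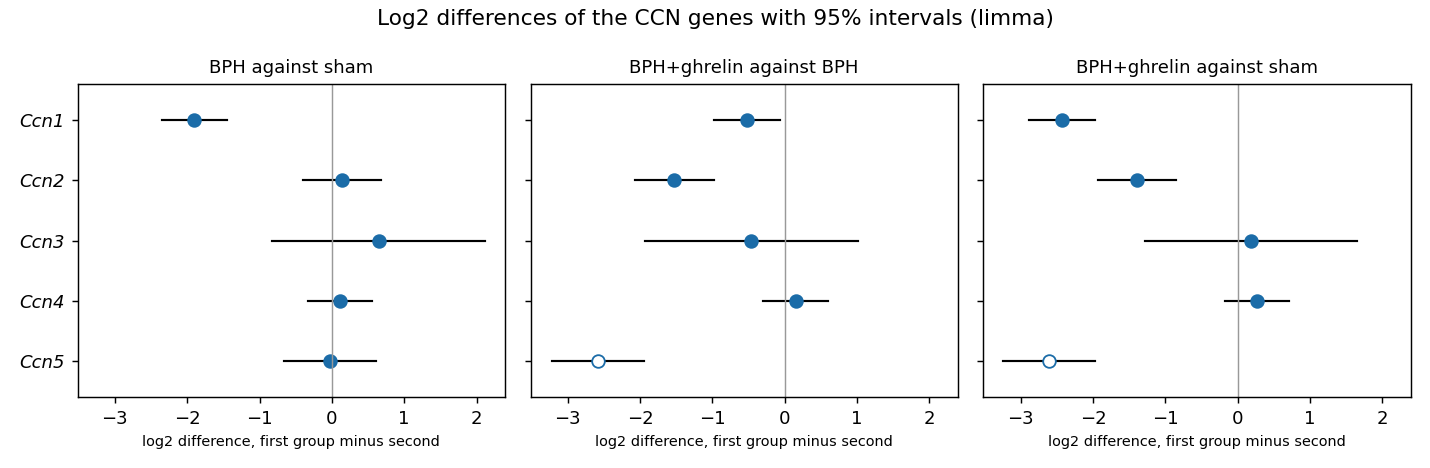
Log2 difference of the 5 measured members in the 3 comparisons (horizontal axis, first group minus second) with the 95% interval of limma; open symbols mark Ccn5 where BPH+ghrelin was not well above background. Ccn1 lies at -1.90 in BPH against sham, and Ccn2 and Ccn5 lie at -1.53 and -2.59 in BPH+ghrelin against BPH.

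Of the 5 members tested, 1 was called lower in BPH against sham (Ccn1), 2 in BPH+ghrelin against BPH (Ccn2 and Ccn5) and 3 in BPH+ghrelin against sham (Ccn1, Ccn2 and Ccn5), and 0 were called higher in any comparison by limma. A call means that the adjusted p was under 0.05. Among all genes tested, 2.18% were called lower and 2.16% higher in BPH against sham, 0.987% and 0.496% in BPH+ghrelin against BPH, and 3.3% and 2.99% in BPH+ghrelin against sham. The same members were at least 2-fold lower, as were 4.63%, 3.21% and 4.2% of all genes in the 3 comparisons. Their arrays were also those that lay below the other group without overlap, as were 14.2%, 19.3% and 12.8% of all genes. Nothing is read from these counts, since the members were chosen on these values. The median log2 difference of the 5 members was 0.11, -0.52 and -1.39, beside 0.04, 0.02 and 0.04 over all genes tested. The 3 comparisons share arrays and are not independent of each other.

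The members also varied within a group. In BPH, Ccn1, Ccn2 and Ccn5 were highest in replicate 1 and lowest in replicate 3, whereas Ccn3 and Ccn4 had the opposite order. In BPH+ghrelin, by contrast, Ccn1 and Ccn3 were highest in replicate 1 and lowest in replicate 3, and Ccn2 and Ccn4 had the opposite order. Pearson's r over the 9 arrays, after subtraction of the group means, was 0.63 for Ccn1 and Ccn2 and 0.63 for Ccn3 and Ccn4. It was -0.95 for Ccn2 and Ccn3 and -0.82 for Ccn1 and Ccn4. Without that subtraction, r was 0.60 for Ccn1 and Ccn2 and -0.21 for Ccn2 and Ccn3. These values describe 9 arrays that share scans and in-between arrays, and the spread within BPH weighs most in them. Ccn5 was left out of them because it was not well above background in BPH+ghrelin.

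Of 9691 other named genes above background on all 9 arrays, those most like each member over the 9 arrays were named by Pearson's r. For Ccn1 they were Gpx2 (r = 0.996), a glutathione peroxidase of epithelia, the adhesion molecule Ncam1 (0.995) and the lysosomal channel Mcoln2 (0.992). The mean log2 signal of Mcoln2 was 11.97 in sham, 7.05 in BPH and 5.49 in BPH+ghrelin, a larger step from sham than that of Ccn1. For Ccn2 they were the matricellular protein gene Sparcl1 (0.996), the monooxygenase Fmo2 (0.987) and the pan-leukocyte antigen Ptprc (0.986). The mean of Sparcl1 was 10.78 in sham, 10.85 in BPH and 9.72 in BPH+ghrelin. Ccn4 was most like Col1a1 (0.961), the main collagen of the stroma, Zbtb11 (0.961) and Prom2 (0.957), and Ccn3 was most like Padi4 (0.945), Slc35c2 (0.942) and Tram1 (0.937). Ccn5 and Ccn6 were not above background on all arrays and were left out.

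The pathways that are known to drive or to receive CCN proteins were followed through lists of their other genes. Over all genes tested, 26.5% had an unadjusted p under 0.05 in BPH against sham, 21.1% in BPH+ghrelin against BPH and 23.7% in BPH+ghrelin against sham, and the counts of list genes at that level are read against these shares. Among Hippo, YAP, TAZ and TEAD components, 14 of 20 had a named probe. Of 14 tested in BPH against sham, 13 were higher and 1 lower, and limma called 1 higher and 0 lower. The called gene was Wwtr1, which encodes TAZ. Wwtr1 had log2 signals of 3.87, 3.48 and 3.79 in sham and 4.72, 4.91 and 5.22 in BPH, a difference of 1.24 ± 0.28 (SE, adjusted p = 0.0496). It was well above background on 2 of the 3 sham arrays, and the call was lost under 8 of 10 other ways of processing, the deposited matrix and another eBayes being the exceptions. In BPH+ghrelin against BPH, limma called 0 of 14, while 3 had an unadjusted p under 0.05. The kinase genes Stk4 (0.65 ± 0.33, adjusted p = 0.299) and Taok1 (-0.48 ± 0.20, adjusted p = 0.215) had the largest differences without overlap there. Against sham, Wwtr1 (1.32 ± 0.28, adjusted p = 0.0338) and Tead2 (0.75 ± 0.16, adjusted p = 0.0332) were called higher in BPH+ghrelin among 13 tested. Under 4 of 10 other ways of processing, 0 genes of the list were called there.

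Of 22 other target genes of YAP and TAZ, 15 had a named probe and 13 were tested in BPH+ghrelin against BPH. There, 10 were lower and 3 higher, and limma called 2 lower and 0 higher. Edn1, the gene of the vasoconstrictor endothelin, had log2 signals of 6.27, 6.24 and 6.21 in BPH and 4.87, 4.43 and 4.05 in BPH+ghrelin, a difference of -1.79 ± 0.29 (SE; adjusted p = 0.0318). F3, tissue factor, had 8.93, 8.84 and 8.83 in BPH and 7.78, 7.86 and 8.02 in BPH+ghrelin, a difference of -0.98 ± 0.13 (adjusted p = 0.0207). F3 was the gene called in BPH against sham, where it was higher by 0.68 ± 0.13 (adjusted p = 0.0295, 1 of 13 called higher and 0 lower). The list had 0 calls there under 3 of 10 other ways of processing, and under 2 of 10 in BPH+ghrelin against BPH. Against sham, Edn1 was lower in BPH+ghrelin (-1.31 ± 0.29, adjusted p = 0.0372) and Gadd45a, a growth arrest gene, was higher (1.04 ± 0.24, adjusted p = 0.0402). In that comparison, the list had 0 calls under 4 of 10 other ways of processing. The median log2 difference of the list was -0.43 in BPH+ghrelin against BPH and 0.38 in BPH against sham.

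Of the TGF-β and SMAD list, 15 of 18 had a named probe. In BPH+ghrelin against BPH, 12 of 13 were lower and 1 higher, with a median log2 difference of -0.48. Limma called 2 of them lower and 0 higher. Among the called genes Ltbp1, which holds latent TGF-β in the matrix, differed by -0.87 ± 0.16 (SE, adjusted p = 0.0427), with 5.85, 5.48 and 5.35 in BPH and 4.79, 4.72 and 4.55 in BPH+ghrelin. In BPH against sham, limma called 0 of 14, and 4 had an unadjusted p under 0.05. The difference of Ltbp1 there was 0.65 ± 0.16 (adjusted p = 0.0574). Tgfb1, 1 of the 4, was not well above background on any sham array, so that no order of the groups is given for it. Against sham, 11 of 12 were lower in BPH+ghrelin. Of these, limma called 3 lower, among them the inhibitory Smad7 (-1.57 ± 0.33, adjusted p = 0.0321). Under 10 other ways of processing, this list had 0 calls in 4 for BPH+ghrelin against BPH and in 2 for BPH+ghrelin against sham.

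Of the SRF and immediate early genes, 15 of 18 had a named probe. In BPH against sham, 11 of 14 were lower and 3 higher, and limma called 1 lower and 0 higher. The called gene was the early response gene Ier3 (-0.92 ± 0.18, adjusted p = 0.0348), from 9.29, 8.55 and 9.03 to 8.07, 8.01 and 8.01. Fos had a larger difference without overlap (-2.45 ± 0.66, adjusted p = 0.0742 by limma) and was not called. Ier3 was also called lower in BPH+ghrelin than in sham (-0.84 ± 0.18, adjusted p = 0.0361). It was 1 of 14 there, with 0 called higher. In each of these comparisons, the list had 0 calls under 4 of 10 other ways of processing. In BPH+ghrelin against BPH, limma called 0 of 14 and 1 had an unadjusted p under 0.05. The transcription factor genes Klf6 (-1.19 ± 0.27, adjusted p = 0.0711) and Egr2 (-0.83 ± 0.44, adjusted p = 0.316) had the largest differences without overlap.

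Receptors and coreceptors of CCN proteins, such as integrins, syndecan and LRP, had a named probe for 11 of 14 genes, and limma called 0 of 9 in any comparison. At an unadjusted p under 0.05 there were 5 in BPH against sham, 2 in BPH+ghrelin against BPH and 3 in BPH+ghrelin against sham. The integrin subunit Itgb5 (0.70 ± 0.19, adjusted p = 0.0731) and Notch1 (0.70 ± 0.24, adjusted p = 0.125) differed most without overlap in BPH against sham, the syndecan gene Sdc4 (-0.85 ± 0.32, adjusted p = 0.183) and Lrp1 (-0.38 ± 0.33, adjusted p = 0.535) in BPH+ghrelin against BPH, and Itgb2 (-0.68 ± 0.19, adjusted p = 0.0715) and Lrp6 (0.42 ± 0.18, adjusted p = 0.208) in BPH+ghrelin against sham. Of the Wnt and β-catenin genes, 9 of 14 had a named probe and limma called 0 of 7 in each comparison, with 2, 2 and 3 at an unadjusted p under 0.05. Sp5, a Wnt target, differed by -1.53 ± 0.36 (adjusted p = 0.0534) in BPH against sham and by -1.35 ± 0.36 (adjusted p = 0.0634) in BPH+ghrelin against sham, and Ctnnb1 by 0.57 ± 0.21 (adjusted p = 0.145) in BPH against sham and -0.53 ± 0.21 (adjusted p = 0.203) in BPH+ghrelin against BPH. Lef1 differed by -0.61 ± 0.35 (adjusted p = 0.350) in BPH+ghrelin against BPH and Nkd2 by -0.89 ± 0.30 (adjusted p = 0.120) in BPH+ghrelin against sham.

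**Figure D4:**
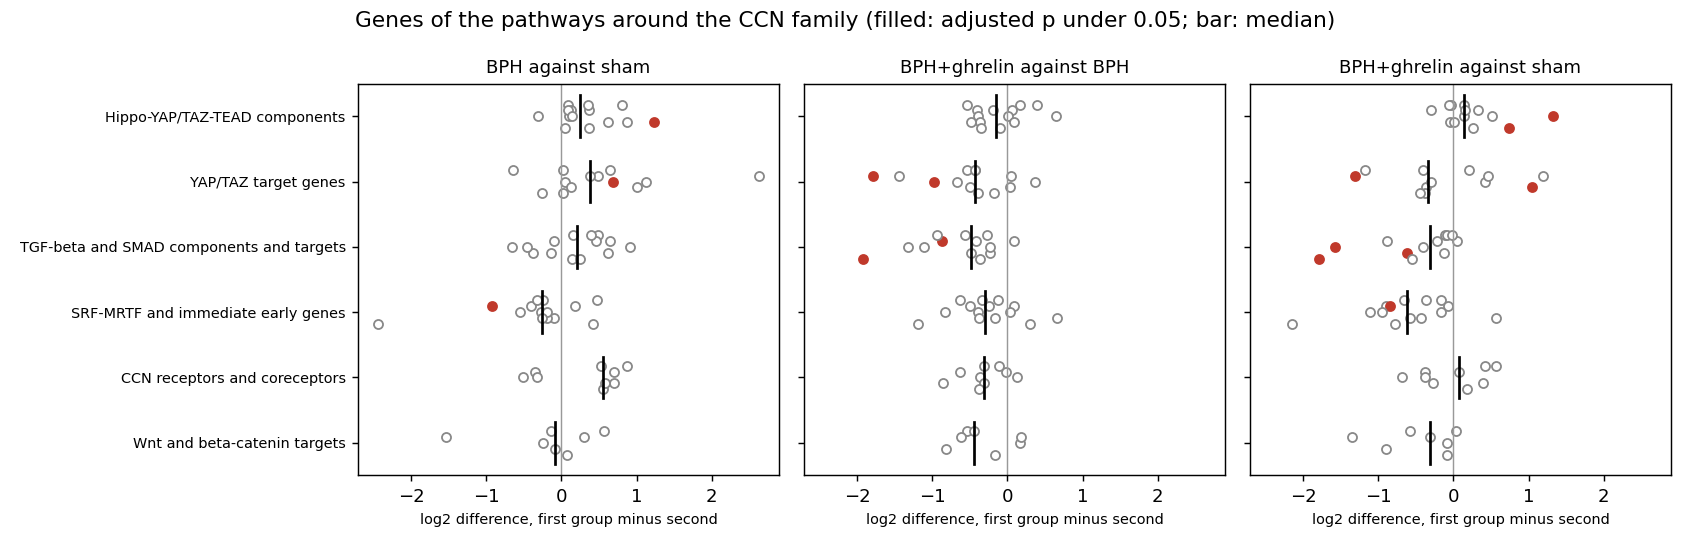
Log2 difference of each tested gene (circles; horizontal axis, first group minus second) in 6 pathway lists and 3 comparisons, with the list median as a bar; filled circles passed an adjusted p under 0.05. In BPH+ghrelin against BPH, the filled circles include Edn1, F3 and Ltbp1, and all lie on the lower side.

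The list medians in BPH against sham were 0.25 (Hippo), -0.25 (SRF), 0.20 (TGF-β), 0.56 (receptors) and -0.08 (Wnt), beside 0.04 over all genes. In BPH+ghrelin against BPH they were -0.15 (Hippo), -0.29 (SRF), -0.31 (receptors) and -0.44 (Wnt), beside 0.02 over all genes. The medians in BPH+ghrelin against sham were 0.14 (Hippo), -0.33 (YAP and TAZ targets), -0.32 (TGF-β), -0.62 (SRF), 0.07 (receptors) and -0.31 (Wnt), beside 0.04 over all genes. The number of pathway calls fell or rose with single arrays left out. With 1 array left out, the 2 calls among YAP and TAZ targets in BPH+ghrelin against BPH came to 1 without BPH replicate 3 and to 0 without any of the other 5 arrays, and the 2 calls of the TGF-β list to 3 and to 0 in the same fits. In BPH against sham, the single calls of the Hippo, target and SRF lists came to between 0 and 4 and the TGF-β list to between 0 and 3, and in BPH+ghrelin against sham the calls of these lists and of the TGF-β list came to between 0 and 8. Under the other ways of processing, a list had 0 to 4 calls in a comparison, and the TGF-β list had 2 in BPH against sham with the filter on all 6 arrays. Without the in-between arrays, 0 genes of the 6 lists were called in any comparison.

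Markers of cell types were set beside these differences. The prostate label was checked against the genes that define secretory epithelium. All 10 markers were well above background on some array, with summed levels of 17.4 to 17.9 (log2) in sham, 17.2 to 17.7 in BPH and 16.8 to 17.4 in BPH+ghrelin. Beside Ccn1 in BPH against sham, 2 of 10 secretory markers were called lower (among them Pbsn, by -2.65 ± 0.23, adjusted p = 0.0019) and 1 was called higher. In addition, 3 of 7 striated muscle markers were called lower (among them Ckm by -1.90 ± 0.21, adjusted p = 0.0045). The summed level of striated muscle markers was 10.4 to 10.7 in sham and 9.49 to 10.2 in BPH. That of immune cell markers was higher in BPH (15.5478 to 15.87) than in sham (15.384 to 15.445). A summed level follows the brightest markers of its list, here Lyz2 (mean 15.30 in BPH). Of the 6 immune markers tested, 5 were higher and Csf1r was lower without overlap (-0.58 ± 0.16), and 0 were called. The summed level of seminal vesicle and coagulating gland genes, 2 of 6 of which fell, was 16.5 to 17.3 in sham, 9.54 to 14.8 in BPH and 9.17 to 11.95 in BPH+ghrelin. The part of these tissues in the Ccn1 difference was not tested.

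Beside Ccn2 and Ccn5 in BPH+ghrelin against BPH, 2 of 8 fibroblast and matrix markers were called lower, Lum by -1.65 ± 0.23 (SE, adjusted p = 0.0240) and Vim by -1.28 ± 0.19 (adjusted p = 0.0256). In smooth muscle 1 of 9 was called lower (Myh11, -0.96 ± 0.11, adjusted p = 0.0157), in endothelium 1 of 7 (Cldn5, -1.35 ± 0.20, adjusted p = 0.0273) and in immune cells 2 of 6 (Cd74, -1.06 ± 0.13, adjusted p = 0.0162, and Ptprc, -0.82 ± 0.14, adjusted p = 0.0370), while 0 were called higher in these 4 lists. The summed levels overlapped for fibroblasts (14.3 to 14.9 in BPH, 14.2 to 14.7 in BPH+ghrelin), smooth muscle (15.3 to 16.1 and 15.5 to 15.6), endothelium (9.85 to 10.5 and 9.69 to 9.91) and immune cells (15.5 to 15.9 and 15.2 to 15.7). Those of basal markers did not overlap, at 12.38 to 12.80 in BPH and 12.84 to 12.92 in BPH+ghrelin. That sum follows Krt15, the brightest of them (means 11.93 and 12.37). Of the 5 basal markers tested, 2 were higher and 3 lower in BPH+ghrelin, with a median log2 difference of -0.24 and 0 called. Among adipocyte genes, 0 of 5 were called by limma, 0 had an unadjusted p under 0.05, and the median log2 difference was -1.17. Single arrays stood apart here: the summed level was 10.4 to 11.8 in BPH, 6.26 to 12.1 in BPH+ghrelin and 7.09 to 12.2 in sham. Adipoq, the gene of adiponectin, was 0.58 on BPH+ghrelin replicate 1 against 10.88 and 11.94 on replicates 2 and 3. The defining markers not well above background on any array were Myh4 of striated muscle and Lep of adipocytes. Beside Ccn1, Ccn2 and Ccn5 in BPH+ghrelin against sham, 4 of 6 seminal vesicle genes, 3 of 7 striated muscle genes, 2 of 6 immune genes and 2 of 10 secretory genes were called lower. So were 1 of 9 smooth muscle genes (Myh11), 1 of 8 fibroblast genes (Lum) and 1 of 6 endothelial genes (Pecam1). In the same comparison, 1 of 10 secretory genes (Krt8) and 1 of 5 basal genes (Krt15) were called higher. Summed levels of basal markers were 12.84 to 12.92 in BPH+ghrelin and 12.10 to 12.60 in sham, without overlap. Of the 5 tested, 3 were higher and 2 lower. Nerve markers also lay above sham, at 11.70 to 12.70 against 10.81 to 10.89. Endothelial markers lay below sham, at 9.69 to 9.91 against 10.28 to 10.58, as did striated muscle markers (9.82 to 9.95 against 10.38 to 10.71). The part of these cell types in the differences of the members was not tested.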

How the data were processed

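Rat prostate RNA on 9 arrays (sham, BPH and BPH+ghrelin, n = 3 each, grouped by sample labels) had been hybridized to the Agilent one-colour design of 44254 spots. The authors deposited scanner intensities made with Agilent Feature Extraction 11.0.1.1 (per the file headers), background-subtracted and not normalized between arrays, and a matrix of log2 values that they had quantile normalized, used here as an alternative only. From the intensities, outlier spots (313 to 741 per array) were removed, spots of a probe averaged, and log2 values of 30356 probes quantile normalized over the 9 arrays. Accessions of 17998 probes (59.29%) matched a RefSeq symbol of assembly GRCr8, the array annotation being of another build. A comparison kept the probes that 3 or more of its 6 arrays showed well above background, and a gene took its passing probe with the highest mean. Groups were compared with limma 3.58.1 (lmFit, eBayes) in R 4.3.3, in 1 fit of the 9 arrays with Benjamini-Hochberg adjustment over all genes tested (19552, 19749 and 19197), and the procedure was tested on simulated data. For the Ccn5 folds at the background limit, the mean of the bright group was set against the lowest signal well above background on each dim array. 0 spots were saturated, and the number of arrays limits the precision. P-values set the difference between groups against the spread between arrays within groups, which limma moderates over genes.

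The members and lists were chosen with earlier results of these data known. All members are named, and of each pathway list and comparison at most 2 called genes per direction, or else the 2 largest differences without overlap. Of the cell type lists, the genes that set the range are named, and for likeness 3 genes per member. Some genes that these rules would name are not reported here. Lists of nerve and of basal cells were also set up: 0 of 7 nerve genes were called in each comparison by limma (1 of 7 at an unadjusted p under 0.05 in each), and of 5 basal genes 2, 0 and 1 were called higher. Same-numbered arrays of different groups were not paired by the labels, and their deviations from the group means correlated at -0.15 to 0.30. Alternatives were another scaling, background correction, filter, probe rule, set of arrays, the deposited matrix, another eBayes, replicate or scan as a block and each array left out; leaving out the in-between arrays was chosen after seeing the data. 0 columns of per-sample values were left unused.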

Additional observations from a re-analysis of the deposited data

How the results depend on the processing

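The direction of every called member difference (Ccn1, Ccn2 and Ccn5) was kept under each alternative run. With scan as a block, 0 members were called in BPH against sham, 0 in BPH+ghrelin against BPH and 1 in BPH+ghrelin against sham, and without the in-between arrays 0 in each. The unadjusted p was under 0.05 for 1, 2 and 3 members in both settings. The replicate number as a block gave 0 calls in BPH+ghrelin against BPH (3 at an unadjusted p under 0.05). It changed no count of called members by more than 1.5 times elsewhere, but ended the call of Ccn2 against sham, and it cut the genes called in BPH+ghrelin against BPH from 293 to 20. A filter on all 6 arrays gave 1 call there, since it left Ccn5 out. With 1 array left out, 0 to 2 members were called in BPH+ghrelin against BPH, 1 in BPH against sham and 2 to 3 in BPH+ghrelin against sham. Over all settings, 2 (scan as a block) to 3069 genes (without sham replicate 1) were called in BPH against sham (849 as reported), 0 (without the in-between arrays; 832 at an unadjusted p under 0.05) to 2106 (only the 6 arrays compared) in BPH+ghrelin against BPH (293 as reported), and 2 (without the in-between arrays) to 1927 (without sham replicate 2) in BPH+ghrelin against sham (1207 as reported). Scaling to the 75th percentile moved the median of all genes in BPH against sham from 0.04 to -0.09, and the calls from 422 higher and 427 lower to 287 and 610, and in BPH+ghrelin against BPH from 98 and 195 to 238 and 264.

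The median of the members in BPH+ghrelin against BPH ran from -1.29 (without BPH replicate 1) to -0.43 with 1 array left out. In BPH against sham it ran from -0.098 (without BPH replicate 1) to 0.17 (without sham replicate 1), and it was 0.37 with scan as a block. In BPH+ghrelin against sham it was -0.46 with normexp and -0.60 without a filter or with the filter on all 6 arrays, where Ccn6 was added or Ccn5 dropped. Differences that were not called turned sign: Ccn5 in BPH against sham (0.0071 with normexp, 0.37 with scan as a block, -0.24 to 0.21 with 1 array left out), Ccn2 (-0.10 to 0.39) and Ccn4 (-0.035 to 0.30) in the same comparison, Ccn3 (-1.29 to 0.17) and Ccn4 (-0.042 with scan as a block, -0.034 to 0.30) in BPH+ghrelin against BPH, and Ccn3 in BPH+ghrelin against sham (-0.041 with scan as a block, -0.0049 to 0.44). The cause was not tested. Signal over background limited Ccn5 and Ccn6.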
